A study of Xenopus laevis with 60 samples.

Results

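The genes that copy DNA were followed through the first hours of Xenopus laevis development, from the rapid cleavages to the start of gastrulation. A gene was taken by its symbol, if this began with mcm, orc, rfc or pold and a digit, or with gins, pola, pole or prim, or if it was cdc6, cdc7, cdc45, cdt1, gmnn, pcna, dbf4, recql4, ticrr, treslin or wdhd1. This gave 61 of 49580 genes, under 48 names, since X. laevis is an allotetraploid whose L and S subgenomes can each hold a copy (a homeolog) of an ancestral gene. Both copies were found for 13 names and 1 copy for 35. The symbol rule also took 4 genes that are not part of the standard replication fork, namely mcm3ap.L (a nuclear export factor), mcm8.L and mcm9.L (a helicase of recombination repair) and primpol.L (a repriming primase), and these were kept apart below. RNA was measured by sequencing, which gave an exon level for 61 genes and an intron level for 60.

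Total RNA came from whole wild-type embryos of the strain labelled Xla.NXR-WTNXR, 2 embryos per library, kept at 23 °C. The time course had 2 libraries each at stage 5, stage 8, stage 9 and stage 10.5, and 1 each at stages 6 and 7. Only the stage 5 libraries, the reference of most stage comparisons, are labelled as depleted of COX2 and COX3. A difference from stage 5 thus also holds this difference in preparation. Stage 9 was sampled 8 hours after fertilization. Stage 9 embryos fell into 8 collections, A to H, each the embryos of 1 experimental day, and libraries of the same group within a collection were sets of embryos from it. A p-value here therefore reflects variation among these sets only. In collections A and B, embryos were bathed from stage 1 in 20 µM triptolide, an inhibitor of transcription, or in DMSO as its control, and in B 500 µg/mL cycloheximide, which blocks translation, was given at stage 8 (2 libraries per group). Morpholinos (MO), antisense oligos that block production of a targeted protein, were injected at stage 1 against the maternal pluripotency factors pou5f3.2, pou5f3.3 and sox3 at 40 ng each, with a GFP MO as control. Collection G compared pou5f3.3 and sox3 morphants with GFP MO (3 libraries each), and collection F compared pou5f3.2 and pou5f3.3 morphants, and triple morphants that also received sox3 MO, with 1 shared GFP MO group (3 each). F also held 3 libraries of triple morphants with cycloheximide. Collection E held 1 library each of pou5f3.3 and sox3 morphants, GFP MO and untreated embryos. Collection H held, with cycloheximide, triple morphants (2) and GFP MO embryos (3), all labelled as discarded, and GFP MO embryos without it (2). In collections C and D all embryos also received cycloheximide (2 libraries per group), with single and double morphants in C and, in D, pou5f3.3 MO at 55 ng with sox3 MO at 75 ng. GFP MO controls received 120 ng in F, G and H and 80 ng in C, D and E. A further 40 ng of GFP MO was given to the morphants of G, the pou5f3.2 and pou5f3.3 morphants of F and the single morphants of C, but not to the morphants of E. The labels give no collection for stages 5, 8 and 10.5, so the stage and the day of collection cannot be told apart. In whole embryos, fewer cells of a type and less RNA per cell cannot be told apart either.

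DNA replication starts at sites bound by the origin recognition complex, which with cdc6 and cdt1 loads the MCM2-7 helicase in a step called licensing, while geminin (gmnn) holds cdt1 in check. Firing factors then turn the helicase on, and polymerase alpha with primase, polymerases delta and epsilon, the sliding clamp PCNA and its RFC loader build the new strands. The frog egg stores these products for very fast cleavage cycles without gap phases, and the cycle lengthens at the midblastula transition, when the embryo's own genome is first widely transcribed. Because the egg already holds exon reads of these genes, reads from introns, which mark unspliced new RNA, were compared beside the exons.

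Exon levels are in TPM, a transcript share scaled to 1e6 and corrected for length, and intron levels in RPKM, reads per kilobase of intron and per 1e6 exon reads. Exon reads ran from 6814881 to 25549499 per library and intron reads from 36766 to 1638148. Differences are log2 values from read counts by edgeR's quasi-likelihood test across 27601 exon and 9883 intron entries, and the call needed both an adjusted p (Benjamini-Hochberg) under 0.05 and a log2 difference of 1.5 or more. Of the 61 genes, 60 had an exon entry with enough reads to be tested and 33 an intron entry. pold3.L, a polymerase delta subunit, was listed at 0 TPM in every library. The introns of 27 further genes were too thinly read to test, among them those of mcm3.L, mcm6.L, mcm10.L, gins1.S, orc4.L and orc5.L. Homeologs can share near-identical stretches, so reads may have been split unevenly between an L and an S copy. The germ plasm markers dazl.L, ddx25.L, dnd1.L and velo1.L summed to 136 to 138 TPM at stage 10.5 and 760 to 772 TPM at stage 5. The summed ectoderm markers stood at 1790 to 1840 TPM at stage 10.5 against 0.074 to 0.077 TPM at stage 5, and with triptolide at most at 0.686 TPM in either collection against at least 35.8 TPM with DMSO.

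At stage 5 several replication genes were among the abundant transcripts of the embryo, and others stood at a few TPM or at 0. The geminin copy gmnn.S stood at 575 and 572 TPM and was the 61st of all genes by level. pcna.L, which encodes the clamp that holds polymerases on DNA, was 82nd with 506 and 515 TPM, and the helicase subunit mcm7.L was 98th with 466 and 484 TPM. Summed over the group, the 6 licensing genes held 2360 TPM, the 12 MCM subunits 1510 TPM, the 8 clamp and loader genes 1400 TPM and the 13 firing factors 1380 TPM. The origin recognition complex (6 genes, 415 TPM), polymerase epsilon (4, 435 TPM), polymerase alpha with primase (5, 242 TPM) and polymerase delta (3, 192 TPM) stood lower. Within each group the levels spread widely. orc1.L, the largest subunit of the origin complex, had 168 TPM and orc2.S 27.4 TPM, and the clamp loader subunit rfc5.L had 15.7 TPM beside the 511 TPM of pcna.L. The helicase subunit mcm6.L stood at 151 TPM and its relatives mcm6.2.L and mcm6.2.S at 2.4 and 3.22 TPM, and the RefSeq gene table lists zMCM6 as a synonym of mcm6.2.L and mmcm6 of mcm6.L. In the licensing group even the lowest member, cdt1.S, had 261 TPM.

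**Figure D1:**
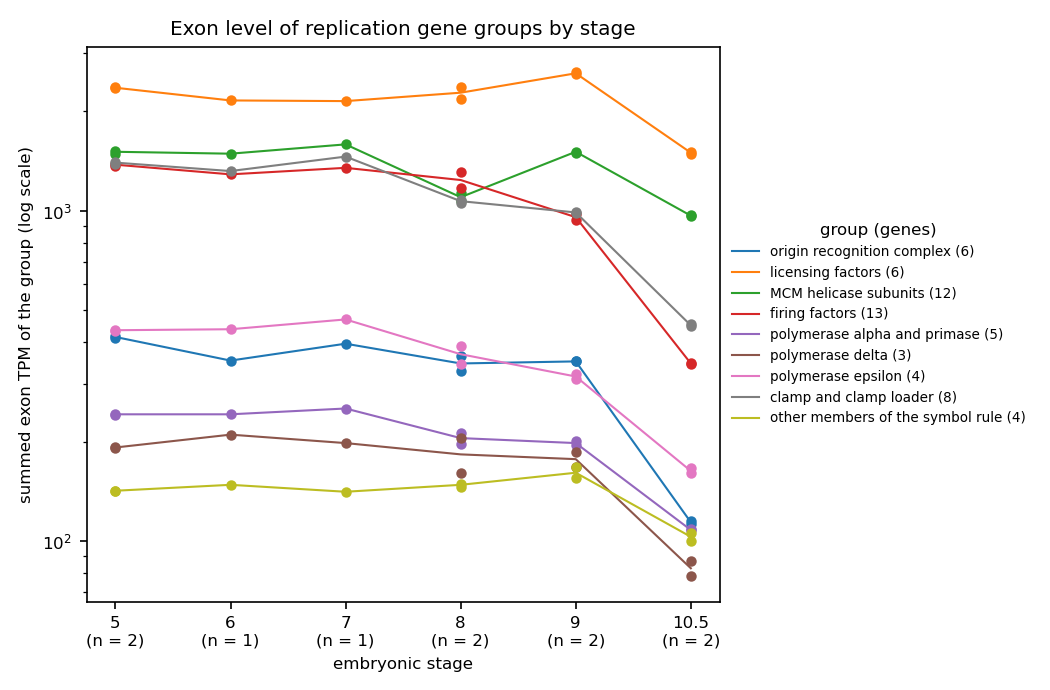
Summed exon TPM (log axis) of each group of replication genes at stages 5 to 10.5, with 1 point per library and a line through the means. The origin recognition complex and the firing factors ended lowest relative to stage 5, at 114 against 415 TPM and 345 against 1380 TPM, while the licensing group ended at 1500 against 2360 TPM and the MCM subunits at 967 against 1510 TPM.

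The summed level of the 61 genes was 3840 ± 31.4 TPM at stage 10.5 against 8070 ± 35.4 TPM at stage 5 (SD, n = 2 each), with 7650, 8000, 6950 and 7270 TPM at stages 6, 7, 8 and 9. The drop thus lay mainly between stages 9 and 10.5. Of the 59 genes with at least 1 TPM at stage 5, the median kept 87.8% of its stage 5 level at stage 9 and 41.9% at stage 10.5, while the median of all 18770 such genes kept 90.1% and 59.1%. The firing factors (median 24.8% kept at stage 10.5) and the origin recognition complex (27.1%) were at the low end, and the licensing factors (61.8%) and MCM subunits (58.8%) at the high end of the standard groups.

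At stage 10.5 the exons of 17 of the 60 tested genes were called lower than at stage 5, against 18% of all genes tested, and 0 were called higher, against 18.7% of all genes. By adjusted p alone 50 were lower and 6 higher, against 44.7% and 27.1% of all genes. The median difference was -1.15 for the 60 genes and -0.309 for all genes. Scaling by DESeq2's size factors or by exon reads alone moved the median of all genes by 0.309 and 0.331 and split all called genes 61% and 62.6% higher in place of 50.9%, so differences near 0 turn with the scaling. Relative to the median of all genes, the replication genes stood 0.837 lower, and 0.813 and 0.781 lower with the other scalings. The fall of the germ plasm markers and the rise of the ectoderm markers ran alongside, and their part in the result was not tested.

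Among the origin recognition genes, orc1.L, orc4.L and orc5.L were called lower at stage 10.5 than at stage 5. orc2.S (9.17 against 27.4 TPM, log2 -1.48) and orc3.S (13.8 against 30.3 TPM, log2 -1.04) also fell, but less than the fold threshold. orc6.L was not called. orc1.L had 34.9 and 34.6 TPM at stage 10.5 against 168 and 168 TPM at stage 5. Both stage 10.5 libraries were far below both stage 5 libraries, with a log2 difference of -2.18 ± 0.0752 (SE, adjusted p = 4.5e-31). orc5.L had 7.35 and 8.22 TPM against 88.2 and 87.8 TPM (log2 -3.4). At stage 9 in collection A it had 25.5 and 24.7 TPM (log2 -2.01 against stage 5, adjusted p = 2.7e-20), but its GFP MO mean in collection G was 54.3 TPM. orc4.L, by contrast, had 42.5 and 40 TPM at stage 9, close to the 43.9 and 45.8 TPM of stage 5, and 4.96 and 2.63 TPM at stage 10.5. orc6.L stayed nearest to its stage 5 level, with 44.7 against 56.3 TPM (log2 -0.24 ± 0.113). This difference was smaller than the shift of the median of all genes with the other scalings (0.309 and 0.331).

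The firing factors held 8 of the 17 called falls. cdc7.L, the kinase that phosphorylates the loaded helicase, had 6.93 and 5.79 TPM at stage 10.5 against 171 and 171 TPM at stage 5. This was the largest fall of any replication gene, at -4.65 ± 0.169 on the log2 scale (SE, adjusted p = 4.4e-30), while its activating subunit dbf4.L had 79.9 and 76.7 TPM against 147 and 143 TPM and was not called (log2 -0.8). cdc7.L stood at 82.5 and 80.9 TPM at stage 9, so most of its fold change came after that stage. The GINS subunits, which join cdc45 and the MCM ring in the active helicase, did not fall alike. gins1.S had 14.8 and 14.4 TPM at stage 9 and 5.72 and 3.86 TPM at stage 10.5, against 92 and 85.8 TPM at stage 5 (log2 -2.81 and -4.12). It was thus among the 4 genes called lower at stage 9 of collection A, against 7.06% of all genes, with orc5.L, gins3.L (4.7 against 14 TPM) and the loader subunit rfc2.L (34.5 against 86.3 TPM). With exon scaling the count was 2, without rfc2.L and gins3.L, and the rfc2.L call was also lost with size factors, DESeq2, the 2-group fit and without stage 5 replicate 2 or stage 9 replicate 2. The stage 9 level of these genes differed by collection. Over 8 groups of stage 9 controls without cycloheximide, means ran from 13.3 to 47.3 TPM for gins1.S and 23.1 to 54.3 TPM for orc5.L. They ran from 4.22 to 10 TPM for gins3.L and 34.5 to 59.8 TPM for rfc2.L. Stage and collection cannot be told apart for these falls. gins2.L (log2 -1.47) and gins4.L (log2 -1.21) were below the fold threshold at stage 10.5. mcm10.L, which helps to activate the helicase, had 13.2 and 17.5 TPM at stage 10.5 against 149 and 152 TPM at stage 5 (log2 -3.2 ± 0.107, adjusted p = 1.07e-31). The other called members were gins3.L (1.28 against 14 TPM, log2 -3.34), cdc45.L (67.1 and 59.9 against 292 and 305 TPM), ticrr.L (27.8 and 29.7 against 130 and 129 TPM), ticrr.S (log2 -1.63) and recql4.L (log2 -1.92). Of these, ticrr and recql4 both act in recruiting helicase parts at origins.

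**Figure D2:**
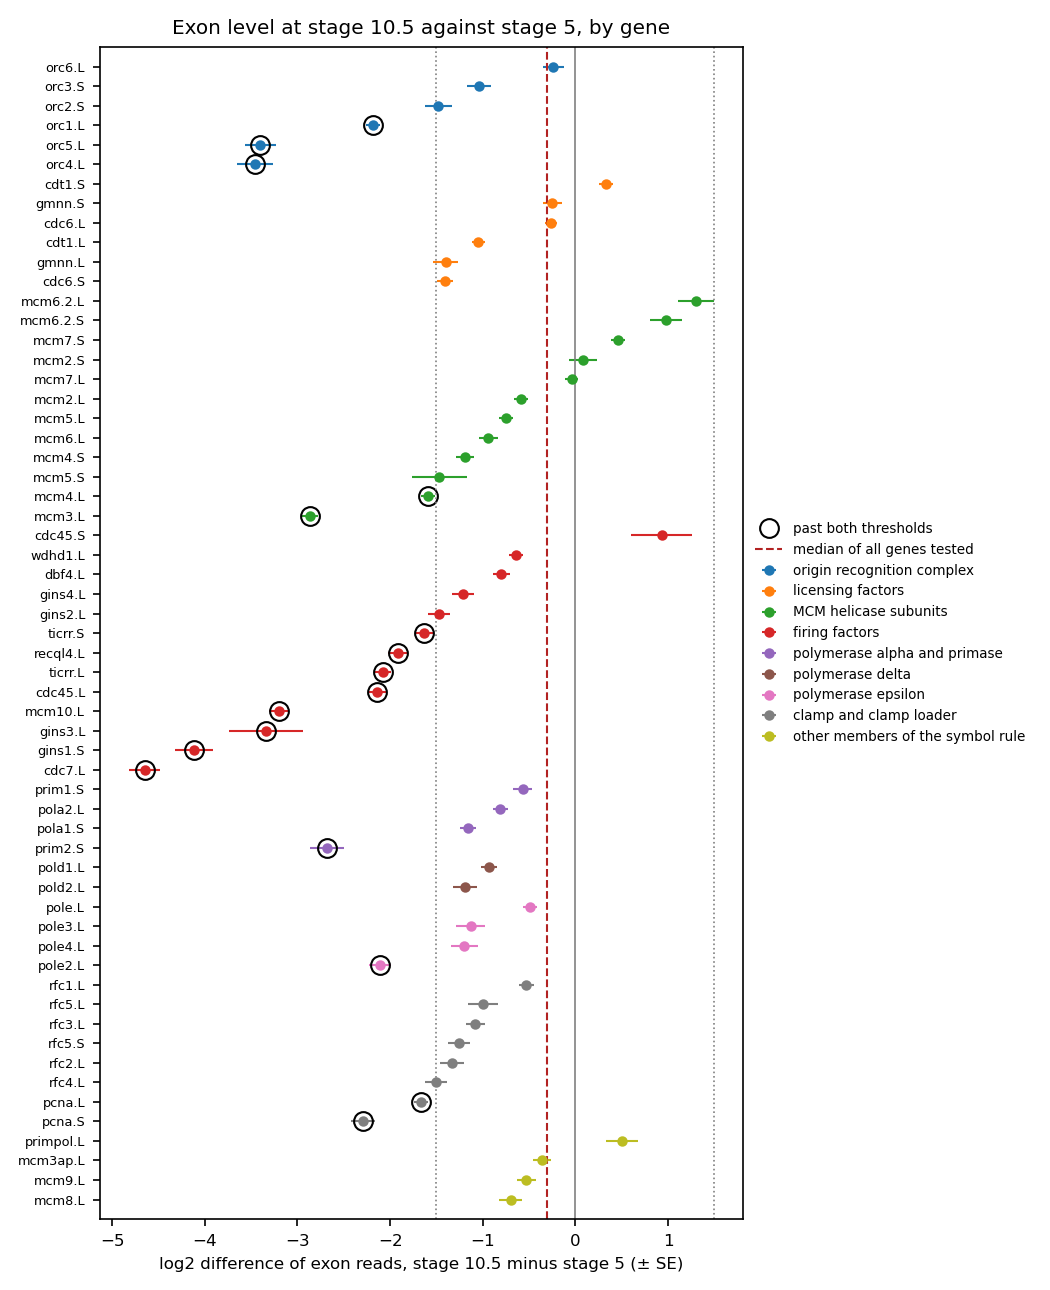
Log2 difference of exon reads, stage 10.5 minus stage 5, with its SE, for 59 replication genes by group (pola1.L, at 0 in both stages, is left out). Circled points passed both thresholds, dotted lines mark a log2 difference of 1.5 and the dashed line the median of all genes, -0.309. cdc7.L lies at the far left at -4.65 and mcm6.2.L at the far right at 1.3.

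The MCM ring did not move as a unit. mcm3.L had 25.7 and 22.5 TPM at stage 10.5 against 189 and 187 TPM at stage 5 (log2 -2.87 ± 0.0924, adjusted p = 2.47e-32), and mcm4.L had 54.2 against 175 TPM (log2 -1.59). mcm7.L, in the same ring, had 434 and 432 TPM against 466 and 484 TPM. Its difference of -0.04 ± 0.0683 did not pass with edgeR's scaling over all reads (adjusted p = 0.629). It was smaller than the shift of the median of all genes with the other scalings (0.309 and 0.331), so its sign depends on the scaling. mcm7.S had 145 and 143 TPM against 109 and 114 TPM (log2 0.46, adjusted p = 1.32e-07), higher in both libraries but under the fold threshold. mcm6.L had 71.9 and 75.6 TPM against 154 and 149 TPM (log2 -0.94), whereas mcm6.2.L had 5.71 and 5.34 against 1.86 and 2.95 TPM (log2 1.3, adjusted p = 4.38e-08). mcm6.2.S was higher too, at 5.59 and 6.33 against 3.11 and 3.33 TPM (log2 0.98, adjusted p = 2.03e-06). Both mcm6.2 copies stayed far below mcm6.L at either stage.

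At the fork, both PCNA copies were called. pcna.L had 152 and 149 TPM at stage 10.5 against 506 and 515 TPM at stage 5 (log2 -1.67 ± 0.0768, adjusted p = 8.77e-26), and pcna.S had 79.4 and 73.9 against 393 and 409 TPM (log2 -2.29). prim2.S, the primase subunit beside the catalytic prim1.S, had 6.91 and 6.55 against 46.7 and 45.4 TPM (log2 -2.68), while prim1.S itself fell short of the threshold with 24.5 against 38.9 TPM (log2 -0.57). pole2.L, an accessory subunit of polymerase epsilon, had 40.2 and 29.8 against 163 and 161 TPM (log2 -2.11), and the catalytic subunit pole.L 40.7 against 60.9 TPM (log2 -0.49). None of the 2 tested polymerase delta genes or the 6 loader genes was called, and rfc4.L (log2 -1.5 when rounded) lay just outside.

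None of the 6 licensing genes was called. At stage 10.5, 3 of them stood under 50% of their stage 5 level. Of all genes with at least 1 TPM at stage 5, 41.4% did. cdc6.S had 92.4 against 262 TPM (log2 -1.41), gmnn.L 161 against 454 TPM (log2 -1.4) and cdt1.L 200 against 441 TPM (log2 -1.05). cdt1.S, a loader of the MCM ring, had 298 and 315 TPM at stage 10.5 against 262 and 260 TPM at stage 5 (log2 0.33 ± 0.077, adjusted p = 0.000167). gmnn.S had 472 and 430 TPM against 575 and 572 TPM and cdc6.L 292 and 290 TPM against 367 and 375 TPM. The sign of these last differences turned with the scaling, since gmnn.S gave -0.25, 0.08 and 0.14 and cdc6.L -0.26, 0.07 and 0.13 with edgeR's scaling over all reads, with size factors and with exon reads alone. mcm3ap.L turned likewise (-0.36, -0.03 and 0.03).

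The copies of a pair often parted. The L over S ratio of exon reads changed in 9 of 13 pairs between stages 10.5 and 5 at an adjusted p under 0.05, and in 47.7% of all 7565 pairs tested. The L copy gave 39.5% of cdt1 TPM at stage 10.5 and 62.8% at stage 5 (ratio change -1.37 ± 0.0624 on the log2 scale, adjusted p = 6.43e-13). For gmnn it gave 26.4% and 44.2% (log2 -1.15, adjusted p = 2.57e-07). The S copy became the larger share of cdt1, and it already was of gmnn. cdc6, the ATPase that works beside cdt1, went the other way, with 75.9% from L at stage 10.5 against 58.6% at stage 5 (log2 1.15, adjusted p = 1.59e-12). The ratio of cdc45 changed most (log2 -3.07 ± 0.412, adjusted p = 4.69e-06), and cdc45.S is described further on. pcna also moved toward L, with 66.2% against 56% (log2 0.62), and mcm2, mcm4, mcm7 and ticrr moved toward S by 0.4 to 0.67. At stage 9 the L share was still near its stage 5 value for cdt1 (62.9%) and cdc6 (57.1%), and for gmnn (37.6%) it lay between the values of stages 5 and 10.5. Other shifts were present earlier. At stage 8 against stage 5, 7 of 13 exon ratios had changed (22.1% of all pairs), with mcm2, mcm4, mcm7 and ticrr among them, toward S. For mcm7, L gave 73.2%, 73% and 72.9% at stages 6, 7 and 8, against 81% at stage 5 and 75.1% at stage 10.5. At stage 9 mcm4 stood toward L (0.22) and mcm2 did not pass (-0.07).

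New transcription, read from introns, rose at stage 9. The exons of cdt1.S changed little, but its introns had 5.19 and 5.14 RPKM at stage 9 against 0.011 and 0.029 RPKM at stage 5 (log2 7.72 ± 0.257, adjusted p = 3.03e-31). gmnn.S introns had 8.76 and 9.74 RPKM at stage 9, the highest of the replication genes, against 0.054 and 0.068 RPKM at stage 5 (log2 6.96). pcna.L had 5.54 and 5.76 against 0.086 and 0.013 RPKM (log2 6.51). In each case both stage 9 libraries lay far above both stage 5 libraries. Of the 33 introns tested, 30 were called higher, against 80.9% of all introns, with a median difference of 3.51 and 3.5 for all. The filter keeps introns that are read in some library, and the intron annotation leaves out regions covered at stage 5, so a rise over stage 5 is favoured. Summed over the 60 genes with an intron level, the libraries held 51.6 and 50.3 RPKM at stage 9 against 2.28 and 2.01 RPKM at stage 5.

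At stage 8, before that rise, the summed introns held 4.32 and 5.36 RPKM. The introns of 5 genes were called higher than at stage 5, against 9.89% of all introns, namely mcm7.L (0.391 against 0.105 RPKM), mcm2.S, mcm5.L, cdc45.S and cdc6.S. Each rested on 13 to 34 reads over 2 libraries, and without stage 8 replicate 2 the count was 2. In exons, 1 gene was called higher at stage 8 (cdc45.S, against 3.91% of all) and 0 lower (4.94% of all), and by adjusted p alone 36 were lower, against 24% of all. With DESeq2 the introns called at stage 8 numbered 10.

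From stage 9 to stage 10.5 the introns split. dbf4.L introns had 2.28 and 2.08 RPKM at stage 10.5 against 0.658 and 0.578 RPKM at stage 9 (log2 1.91 ± 0.178, adjusted p = 8.43e-14), and those of ticrr.L, ticrr.S and primpol.L were also called higher. The 4 genes compare with 44.4% of all introns. pcna.S introns had 0.507 and 0.424 RPKM at stage 10.5 against 3.91 and 3.43 RPKM at stage 9 (log2 -2.89, adjusted p = 2.31e-12). Those of pcna.L were at 1.44 and 1.44 against 5.54 and 5.76 RPKM (log2 -1.87), and the introns of mcm4.S, cdc6.S, gins4.L and prim1.S were called lower as well. These 6 compare with 4.34% of all introns. The median difference was -0.536 for the 33 introns and 1.28 for all. Against stage 5, 26 introns were called higher at stage 10.5 and 91.7% of all introns were, with medians of 3.56 and 5. gmnn.L introns were at 4.85 and 7.16 RPKM at stage 10.5 against 2.66 and 3.17 RPKM at stage 9, and were not called. In exons over the same interval, 8 genes were called lower (10.8% of all) and 0 higher (16.2% of all). They were orc1.L, mcm10.L, mcm3.L, cdc7.L, orc4.L, cdc45.S, prim2.S and gins3.L, and the count was 13 without stage 10.5 replicate 1 or without the filter. The intron calls of ticrr.L and gins4.L were each lost under 5 alternatives. Stage 10.5 shares no stated collection with stage 9, and this comparison was chosen after the data were seen.

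Intron signal of the replication genes was low with triptolide. In collection B the introns summed to 31.3 and 34.7 RPKM with DMSO against 1.81 and 2.33 RPKM with triptolide, and in A to 44.3 and 50 RPKM with DMSO against 4.16 and 3.82 RPKM with triptolide. cdt1.S introns had 3.21 and 3.3 RPKM with DMSO against 0.017 and 0.026 RPKM with triptolide in B (log2 6.94 ± 0.271, adjusted p = 4.96e-28). mcm7.L introns had 2.75 and 3.07 against 0.06 and 0.069 RPKM (log2 5.24), and pcna.L introns 4.22 and 4.72 against 0.087 and 0.07 RPKM (log2 5.57). DMSO libraries lay above triptolide libraries without overlap in all 3. mcm6.2.S introns had 139 reads with DMSO and 1 with triptolide, a count ratio of 167 with a 95% counting interval of 29.5 to 6640. orc6.L introns had 13 reads with DMSO and 0 with triptolide, at least 2.64-fold higher against a floor of 3 reads per library. In B 25 introns were called higher with DMSO, against 73.1% of all introns, and in A 24, against 68.6%. Because the filter keeps introns that are read in some library, a higher level than with triptolide is favoured, with DMSO and with cycloheximide alike.

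**Figure D3:**
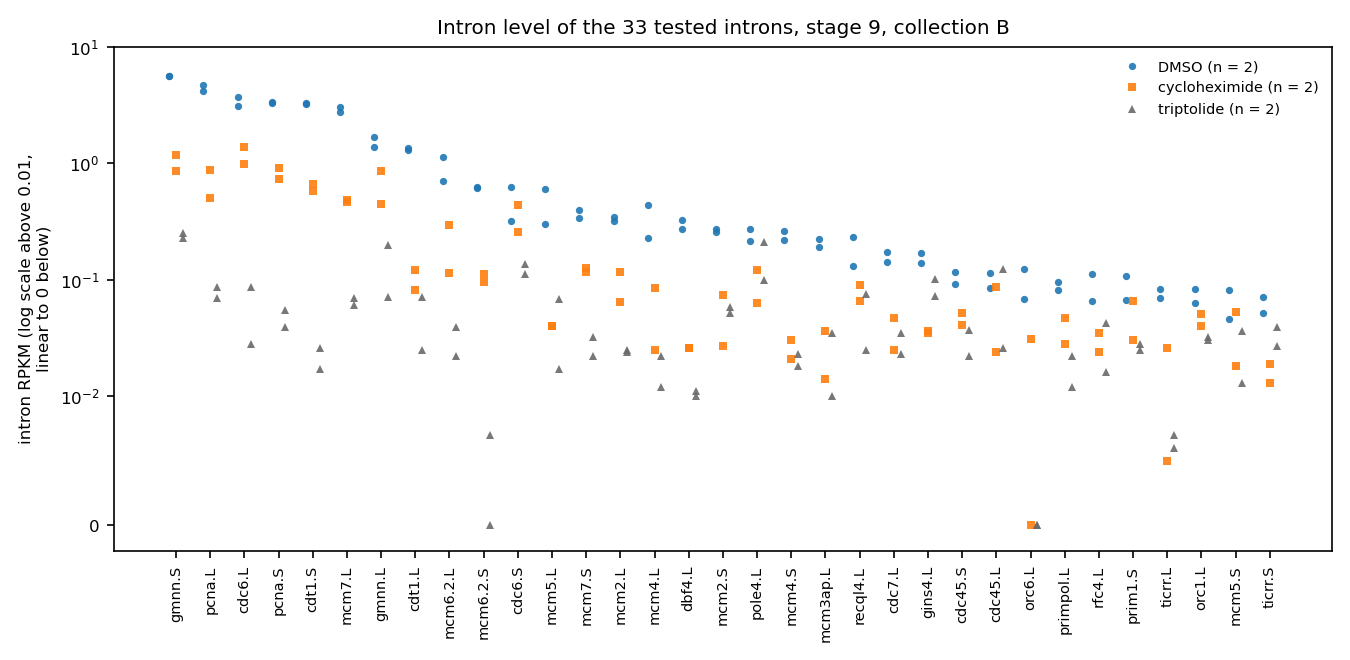
Intron RPKM at stage 9 in collection B for the 33 introns tested (log axis above 0.01, linear below), with 1 point per library. DMSO points lie highest for gmnn.S, at 5.68 and 5.62 RPKM, cycloheximide points for it at 1.19 and 0.856 RPKM, and triptolide points at 0.251 and 0.226 RPKM.

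Exons of the replication genes differed little with triptolide by stage 9. With DMSO in collection B 0 were called in either direction (6.3% of all genes were higher and 0.315% lower), 43 passed an unadjusted p under 0.05, and DESeq2 also called 0. Here and below, no share of all entries is given for counts at an unadjusted p or under the other scalings. Such counts therefore do not set the replication genes apart. By edgeR's adjusted p alone 2 were higher and 38 lower with DMSO, against 7.25% and 36.9% of all genes, but 6 lower with DESeq2's size factors and 2 lower with exon scaling, so the number of lower exons depends on the scaling. In collection A, mcm6.2.L had 4.84 and 5.66 TPM with DMSO against 1.41 and 1.44 TPM with triptolide (log2 1.7 ± 0.219, adjusted p = 4.16e-09). mcm6.2.S had 4.41 and 5.12 TPM against 1.44 and 1.27 TPM (log2 1.63, adjusted p = 1.34e-08). These were the 2 exons called higher in A, against 5.72% of all genes, and none was called lower (0.207% of all). In B the values were 3.28 and 3.27 against 1.76 and 1.4 TPM for mcm6.2.L (log2 0.85) and 4.26 and 3.66 against 2.57 and 2.55 TPM for mcm6.2.S (log2 0.42), higher with DMSO without overlap but below the fold threshold.

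With translation blocked from stage 8, part of the intron signal remained. cdc6.L introns had 1.39 and 0.99 RPKM with cycloheximide against 0.028 and 0.087 RPKM with triptolide in B (log2 4.13 ± 0.397, adjusted p = 2.51e-12), and cdt1.S introns 0.66 and 0.583 against 0.017 and 0.026 RPKM (log2 4.59). pcna.S introns had 0.908 and 0.735 against 0.055 and 0.039 RPKM (log2 3.88). In all, 11 introns were called higher with cycloheximide than with triptolide, against 33.2% of all introns. They were those of cdc6.L, cdt1.S, gmnn.L, gmnn.S, mcm2.L, mcm6.2.L, mcm6.2.S, mcm7.L, mcm7.S, pcna.L and pcna.S. Against DMSO, which shares its embryos and its cycloheximide libraries with this comparison, 21 introns were lower with cycloheximide, against 51.3% of all. cdt1.L and cdt1.S stood apart in level, since cdt1.L introns had 0.121 and 0.082 RPKM with cycloheximide against 1.3 and 1.35 RPKM with DMSO (log2 -3.64), and cdt1.S introns 0.66 and 0.583 against 3.21 and 3.3 RPKM (log2 -2.35). In exons 0 genes were called with cycloheximide against triptolide (3.74% higher and 0.438% lower of all) or against DMSO (1.5% and 3.95%). In each, 28 passed an unadjusted p under 0.05 and DESeq2 called 0. By adjusted p alone 22 exons were higher with cycloheximide than with DMSO, against 15.1% of all, and 19 and 16 with the other scalings. They included cdc7.L (116 and 83.4 against 54 and 53.3 TPM), gins1.S (30.7 and 27 against 14.4 and 12.1 TPM), orc5.L (50.5 and 36 against 24.3 and 23.8 TPM) and cdc45.L (248 and 276 against 177 and 172 TPM).

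The homeologs parted in introns as well. In collection B the L over S intron ratio was higher with DMSO than with triptolide for cdc6 (log2 3.88, adjusted p = 0.00146) and ticrr (2.54) and lower for cdt1 (-2.44), 3 of 13 pairs against 7.84% of all 7094 pairs. cdc6.L introns had 3.4 RPKM with DMSO where cdc6.S had 0.475 RPKM, and cdt1.L 1.32 RPKM where cdt1.S had 3.25 RPKM. The ticrr copies were nearly level with DMSO, at 49 (L) and 51 (S) reads. With triptolide the L and S reads were few, at 17 and 23 for cdc6, 16 and 8 for cdt1 and 6 and 38 for ticrr. Only 1 to 2 of these pairs passed when any 1 of the 4 libraries was left out. In collection A 2 of 13 pairs passed the same test, against 5.1% of all pairs, namely ticrr (1.94) and pcna (2.13). There cdc6 (2.09, adjusted p = 0.214) and cdt1 (-0.74, adjusted p = 0.614) did not pass, and pcna did not pass in B (-0.29). At stage 10.5 against stage 5 the intron ratio rose for cdc6 (3.67) and fell for cdt1 (-3.69), the same directions as their exon ratios, and it also rose for mcm2 (1.73) and mcm5 (3.69). For mcm2 the exon ratio moved the other way (-0.67). These 4 of 13 pairs compare with 18.6% of all pairs, and their copies held only 7 to 36 intron reads each at stage 5.

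cdc45.S needs its own account. Its exons had 24.8 and 27.6 TPM at stage 8 against 1.78 and 2.32 TPM at stage 5 (log2 3.57 ± 0.224, adjusted p = 1.92e-18), and 26.1 and 24.6 TPM at stage 9 in collection A (log2 3.42 against stage 5). It was the only exon called higher at either stage, against 3.91% of all exons at stage 8 and 9.29% at stage 9. The same level was present when transcription had been blocked, with 22.9 and 24.3 TPM with triptolide in A and 18.5 and 13.2 TPM in B. At stage 9 its level differed by collection, with 0.383 to 1.39 TPM in the libraries of C, 1.82 to 2.78 TPM in D, 6.61 to 8.21 TPM in H and 31.2 to 40.7 TPM in G, each range holding every treatment of that collection. cdc45.L had between 59.9 and 325 TPM in every library. Over 8 groups of stage 9 controls without cycloheximide, which leave out C and D, the highest cdc45.S mean was 4.87 times the lowest, and the median of such ratios was 1.59 for the replication genes and 1.78 for 20771 genes. pola1.L, a copy of the polymerase alpha catalytic subunit, had at most 0.591 TPM in any library of the other collections and stages, and 0.409 to 1.09 TPM in B, 1.07 to 1.98 TPM in D and 0.919 to 2.21 TPM in H.

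**Figure D4:**
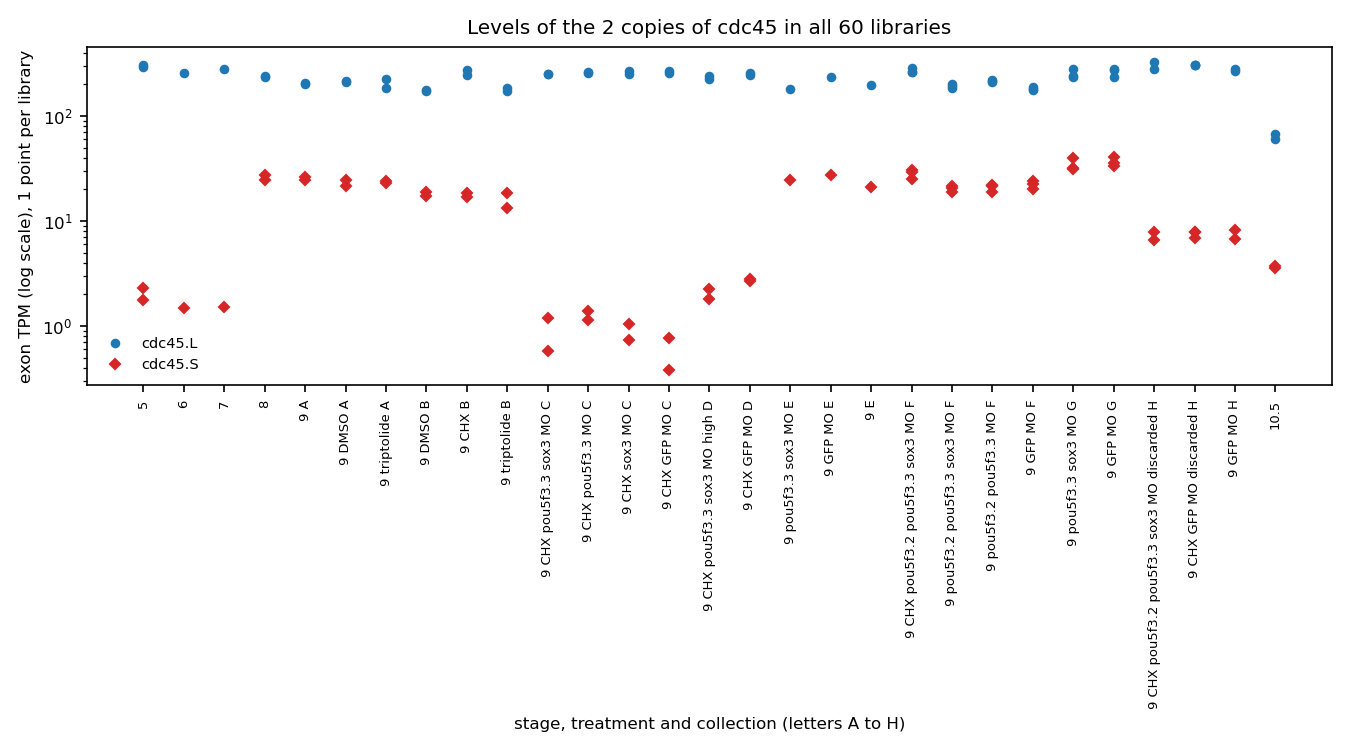
Exon TPM (log axis) of cdc45.L and cdc45.S in all 60 libraries, ordered by stage and collection, with 1 point per library. The red points of cdc45.S step with the collection, lowest in C and highest in G, while the blue points of cdc45.L stay within 59.9 to 325 TPM.

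Morphants at stage 9 differed from GFP MO embryos mostly in introns. gmnn.S introns were lower in all 3 comparisons without cycloheximide. They had 1.56, 1.95 and 1.55 RPKM in pou5f3.3 and sox3 morphants against 3.51, 3.98 and 4.46 RPKM with GFP MO in G (log2 -1.25 ± 0.151, adjusted p = 5.01e-09). In F they had 2.54, 1.97 and 1.98 RPKM in triple morphants and 3.54, 4.48 and 3.69 RPKM in pou5f3.2 and pou5f3.3 morphants, against 6.76, 7.88 and 7.3 RPKM with the shared GFP MO (log2 -1.76 and -0.93, adjusted p = 2.63e-16 and 1.02e-08). No morphant library overlapped its controls, and in E, with 1 library each and no test, the values were 3.1 RPKM in pou5f3.3 and sox3 morphants and 8.64 RPKM with GFP MO. gmnn.L introns did not pass in any of the 3 comparisons. Only the triple morphants took gmnn.S past both thresholds.

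Most other introns that passed in these comparisons were higher in the morphants. mcm7.L introns had 2.77, 2.84 and 2.15 RPKM in the G morphants against 1.75, 1.36 and 1.31 RPKM with GFP MO (log2 0.77), and 4.58, 4.35 and 5.36 RPKM in triple morphants against 1.71, 1.96 and 2.21 RPKM (log2 1.26, adjusted p = 1.48e-13). mcm2.L gave log2 differences of 0.84 in G and 1.41 in the triple morphants, and mcm6.2.S 0.73 and 1.31. Again the groups of mcm7.L did not overlap. The median difference of all introns was 0.58 in G, 0.35 in pou5f3.2 and pou5f3.3 morphants and 0.295 in triple morphants. For the 33 introns of replication genes it was 0.638, 0.462 and 0.45, so a rise was not particular to these genes. By adjusted p alone 16 of the 33 introns were higher and 1 lower in G, against 33.3% and 5.18% of all introns. In F these numbers were 11 and 1 for pou5f3.2 and pou5f3.3 morphants (23.9% and 7.24%) and 13 and 1 for triple morphants (26.7% and 11.5%), and the comparisons of F share their controls. The 1 lower intron was gmnn.S each time.

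**Figure D5:**
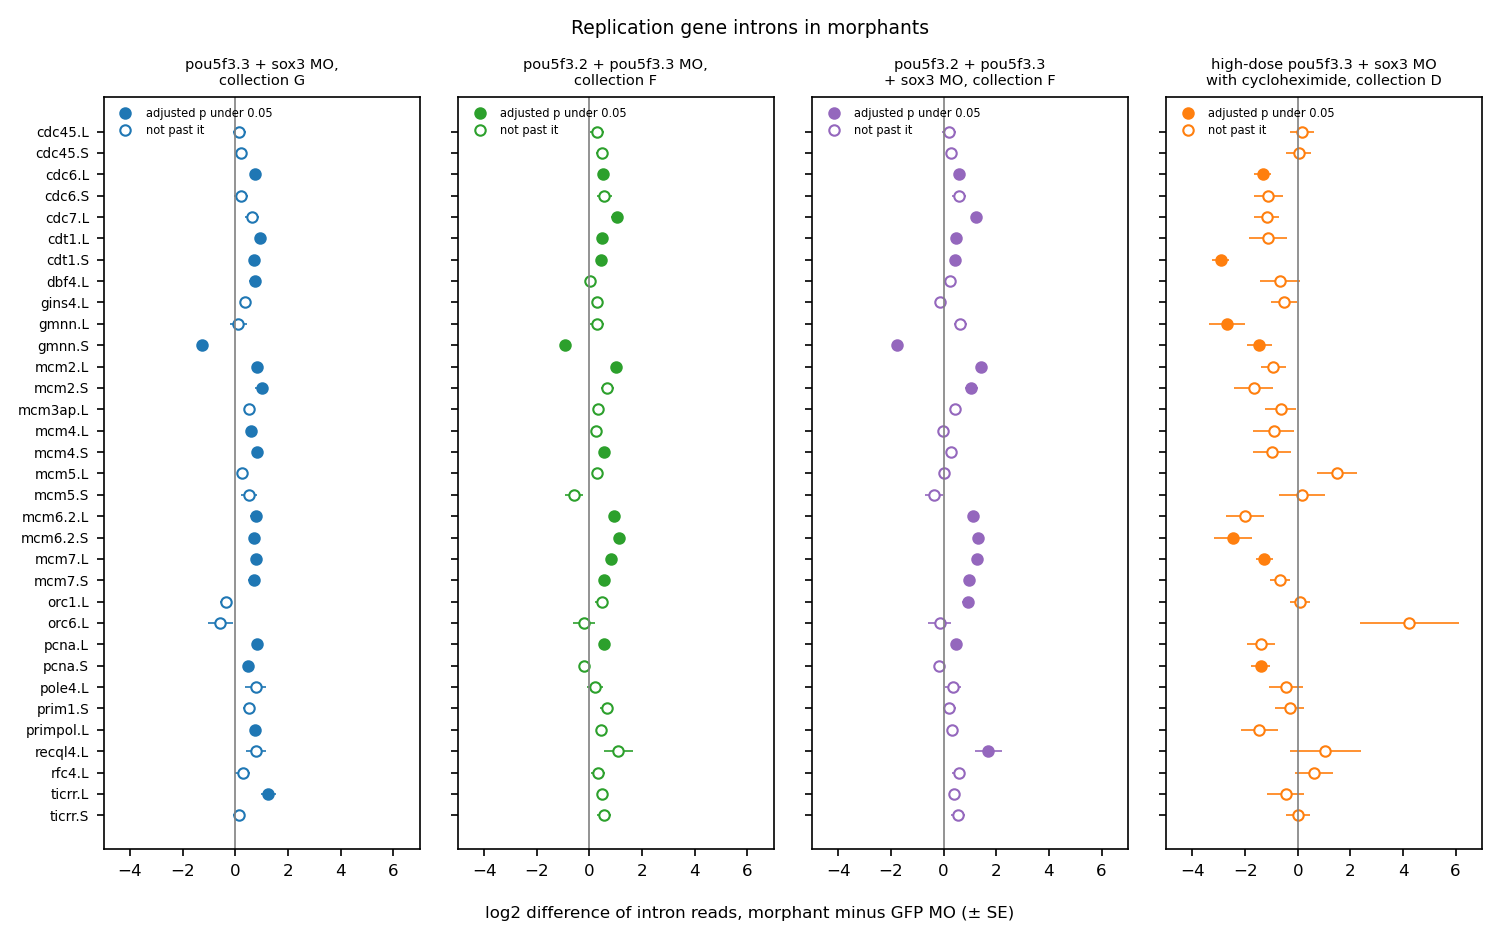
Log2 difference of intron reads, morphant minus GFP MO, with its SE, for the 33 introns tested in 4 comparisons at stage 9. Filled points passed an adjusted p of 0.05. gmnn.S lies left of 0 in every panel (-1.25, -0.93, -1.76 and -1.46), and most other filled points lie right of 0 without cycloheximide and left of it with cycloheximide. The medians of all introns tested lay on the same sides, at 0.58, 0.35, 0.295 and -0.756.

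At both thresholds 0 entries were called in G and in pou5f3.2 and pou5f3.3 morphants, where 8.05% and 4.72% of all introns were higher and 2.67% and 3.16% lower. Of all exons, 1.32% were higher and 0.616% lower in G, and 0.953% and 0.79% in pou5f3.2 and pou5f3.3 morphants. At an unadjusted p under 0.05 these comparisons had 21 and 19 introns and 7 and 9 exons, and DESeq2 called 0. In triple morphants gmnn.S was called lower (5.36% of all introns) and recql4.L higher (8.73%). recql4.L introns had 0.15, 0.091 and 0.148 RPKM in triple morphants against 0.063, 0.016 and 0.043 RPKM (log2 1.7, adjusted p = 0.0122), from 45 and 13 reads, and this call was lost without GFP MO replicate 2 or triple morphant replicate 1 of F. In exons of triple morphants 0 genes were called (1.38% of all higher and 1.45% lower), 18 passed an unadjusted p under 0.05 and DESeq2 called 0. By adjusted p alone 3 exons were higher and 9 lower, against 4.18% and 6.03% of all exons. The lower ones included orc1.L (99.3 against 137 TPM, log2 -0.48), dbf4.L (86.3 against 122 TPM) and ticrr.L (53.8 against 75.2 TPM). mcm6.2.S was among the higher ones (5.51 against 2.25 TPM, log2 1.27, adjusted p = 1.12e-08).

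With cycloheximide in collection D the 7 introns past an adjusted p alone were all lower in morphants, against 21% of all introns. Of all 9883 introns, 0 were higher there, so the direction was not particular to the replication genes. cdt1.S introns had 0.081 and 0.077 RPKM in high-dose pou5f3.3 and sox3 morphants against 0.655 and 0.695 RPKM with GFP MO (log2 -2.93 ± 0.316, adjusted p = 2.31e-10). gmnn.L introns had 0.061 and 0.048 against 0.514 and 0.307 RPKM (log2 -2.69, 6 and 45 reads), and mcm6.2.S introns 0.019 and 0.015 against 0.141 and 0.079 RPKM (log2 -2.46, 4 and 26 reads). These 3 were called, against 19.3% of all introns, and DESeq2 called 7. Only cdt1.S remained without GFP MO replicate 1 or without morphant replicate 2 of D, and without morphant replicate 1 the count was 5. In exons 0 were called (0.0761% of all higher and 1.51% lower), 14 passed an unadjusted p under 0.05 and DESeq2 called 0. cdt1.S thus differed in opposite directions, at 4.07, 3.34 and 3.35 RPKM in morphants against 2.43, 1.74 and 2.16 RPKM in G, without cycloheximide. The median difference of all introns changed sign as well, at -0.756 in D and 0.58 in G, so this was not particular to cdt1.S. The collections, doses and treatment differ between D and G, and the difference between them was not tested. In collection C, at the lower dose, 0 entries were called in pou5f3.3, sox3 or double morphants against their shared GFP MO control. Of all introns, 1.58%, 0.0405% and 5.2% were lower there, and of all exons 0.178%, 0.00725% and 0.572%. Each comparison had 1 exon and 2, 2 and 4 introns at an unadjusted p under 0.05, and DESeq2 called 1 intron in the double and 0 in the single morphants.

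Around these genes, 75 further genes of single-strand binding, nucleotide supply, chromatin assembly, fork protection and E2F control were followed as a list. At stage 10.5 against stage 5 the exons of 7 were called higher and 23 lower of 74 tested, against 18.7% and 18% of all exons, and 55 of 61 introns were higher, against 91.7% of all introns. top2b.L, a type II topoisomerase, was higher in exons (45.3 against 1.14 TPM, log2 5.41, adjusted p = 5.17e-36), as was rbl1.L, a relative of the retinoblastoma protein that represses E2F targets (27.9 against 2.01 TPM, log2 3.89). dnmt1.S, the maintenance DNA methyltransferase, was lower (64.5 against 382 TPM, log2 -2.47), as was topbp1.L, which acts with ticrr in firing (7.23 against 53.6 TPM, log2 -2.79). With DMSO against triptolide in B, 44 of the 61 introns of the list were higher (73.1% of all introns), and with cycloheximide against triptolide 16 were higher (33.2%) and 1 lower (0.536%). In G 1 of 61 introns of the list was called higher (8.05% of all) and 0 lower (2.67%). Of 74 exons 0 were called there (1.32% of all higher and 0.616% lower). The called intron was that of pclaf.S, a PCNA-binding factor, at 3.4 RPKM in morphants and 1 RPKM with GFP MO (log2 1.72, adjusted p = 5.62e-12). In triple morphants of F 3 were higher (8.73%) and 1 lower (5.36%). With cycloheximide in D 7 were lower (19.3%), among them pclaf.S, at 0.101 against 0.644 RPKM (log2 -2.55, adjusted p = 5.77e-06).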

How the data were processed

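The study measured total RNA of whole embryos in 60 libraries. The authors aligned reads with HISAT2 (2.2.1 in the submitters' notes) to the X. laevis v9.2 genome and made the deposited counts of read pairs in exons and introns with featureCounts 2.0.1 on the coding strand. The authors derived the deposited TPM values from exon counts and lengths, and the RPKM values, also deposited, from the intron counts, the intron lengths and the exon depth (1e6). The scaling of TPM ran over more genes for stage 8 replicate 2 and for stage 10.5 than elsewhere. Spike-in RNA was added at stage 10.5, and COX2 and COX3 were removed at stage 5.

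Low entries were dropped: an exon entry needed 0.5 counts per 1e6 in some library, an intron entry more than 10 counts together with 0.25 RPKM. All libraries but those of collection H, which the labels mark in part as discarded, entered 1 fit of edgeR 4.0.16 (R 4.3.3) with TMM scaling and no replicate block. SE was taken as the absolute log2 difference divided by the root of the F statistic. L over S ratios were tested by edgeR with the library as a block in pairs with at least 10 reads. Tested on simulated data for DMSO against triptolide in B, the fit recovered 200 of 200 changed entries with 2 false calls among 37284. The result was not split by read count or size of change, and recovery of entries with few reads was not tested. Alternatives were DESeq2 1.42.0, its size factors, exon scaling, no filter, adjusted p alone, 2-group fits, a replicate block and leaving out libraries. Those of stage 10.5 against stage 9 were chosen after the data were seen.

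Genes named are up to 6 called members of smallest adjusted p per direction and comparison, the highest and lowest stage 5 member of each group, untested members and pairs with a changed ratio, and others named were chosen after their values were seen. The members and lists were chosen with earlier results of these data known. No sequence of these genes was used here, and 59 of the 61 symbols matched the RefSeq gene table.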

Additional observations from a re-analysis of the deposited data

Results flagged for a closer look

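The response of mcm6.2.S exons to triptolide differed between collections A and B by an interaction term of edgeR, with a log2 difference of DMSO over triptolide of 1.63 in A and 0.42 in B, a gap of 1.21 (SE 0.286, adjusted p = 0.0314). It was the 1 of 93 entries of replication genes that passed, beside 165 of all 37484 entries, and DMSO libraries were higher than triptolide libraries in both collections. With a replicate block the count was 0, and it was 0 in 6 of the 8 fits that left out 1 library.

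Libraries outside the tested comparisons also carried intron reads of the replication genes. The highest sum in a stage 5 or triptolide library was 4.16 RPKM. In collection E, with 1 library per group, the sum was 52 RPKM in pou5f3.3 and sox3 morphants, 48 RPKM with GFP MO and 44.1 RPKM untreated. In collection H the lowest library held 13.8 RPKM among the discarded triple morphants with cycloheximide, 8.56 RPKM among the discarded GFP MO embryos with cycloheximide and 18.3 RPKM among GFP MO embryos. The lowest triple morphant library with cycloheximide in F held 4.74 RPKM.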

How the results depend on the processing

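Counts below are of replication genes. DESeq2's size factors gave 1 exon higher at stage 10.5 than stage 5 (0 in the report) and 5 entries in D (3), and exon scaling gave 1 and 5, with 2 exons lower at stage 9 (4). Without the low-count filter, stage 8 introns numbered 8 (5), exons lower at stage 10.5 than stage 9 13 (8) and DMSO exons in A 1 (2). DESeq2 gave 10 stage 8 introns, 1 exon higher at stage 10.5, 7 entries in D and 1 in the C double morphants. Adjusted p alone gave 41 exons lower and 5 higher at stage 9 (41.9% and 14.5% of all exons). At stage 10.5 it gave 50 lower and 6 higher (44.7% and 27.1%), and 45 lower than at stage 9 (33.4%). With DMSO it gave 25 exons in A (30% of all lower, 6.66% higher) and 40 in B (36.9% and 7.25%). For cycloheximide against triptolide it gave 21 (18.7% and 6.62%). It gave 20 entries in G, 17 and 26 in F (pou5f3.2 and pou5f3.3 and triple morphants), 1 in C (pou5f3.3) and 8 in D. Of all exons 2.59% were higher and 1.72% lower in G, and 2.23% and 2.45% in pou5f3.2 and pou5f3.3 morphants. In D these were 1.82% and 1.71%, and in C 3.02% of all introns were lower. Rescaling TPM gave a stage 10.5 sum of 3942 TPM (3835). Replicate numbers were not taken to pair the libraries, since the labels tie nothing else to a number and the correlation of same-numbered deviations ran from 0.197 to 0.346 in A and was 0.382 in D, but ran from -0.57 to -0.002 in B, -0.043 to 0.115 in C, -0.253 to 0.379 in F and -0.227 to 0.063 in G. With a replicate block the interaction count was 0 (1), and the block moved no other count by over 1.5 times. Leaving out 1 library gave, lowest to highest, 0 to 1 for exons higher and 17 to 20 lower at stage 10.5, 25 to 26 introns there, 9 to 13 exons lower at stage 10.5 than stage 9, 2 to 5 stage 8 introns, 1 to 1 exon higher, 3 to 4 lower and 30 to 31 introns at stage 9. It gave 2 to 2 exons and 24 to 26 introns for triptolide in A, 0 to 0 and 22 to 28 in B, 0 to 0 exons and 8 to 13 introns for cycloheximide against triptolide, and 19 to 23 introns against DMSO. It gave 0 to 1 in G, 0 to 0 and 1 to 3 in F, 0 to 1, 0 to 0 and 0 to 1 in C, 1 to 5 in D, 0 to 1 for the interaction, 9 to 9 exon ratios at stage 10.5 and 1 to 2 intron ratios in B. Of 840 alternatives for 76 named differences, 804 kept the call, 36 lost it and 0 reversed. These differences had been called, so a reversal was unlikely from the start. Differences not called, such as those of gmnn.S, cdc6.L and mcm3ap.L at stage 10.5, did change sign with the scaling. Intron calls at stage 8 rest on 13 to 34 reads each.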
